A study of Mus musculus with 4 samples.

Results

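The genes described here are the matrix metalloproteinases (MMP), the tissue inhibitors of metalloproteinases (TIMP), the ADAM membrane proteins, and the secreted ADAMTS and ADAMTS-like proteins of mouse sciatic nerve. They were taken by name alone, as every probe whose platform gene symbol is Mmp, Timp, Adam, Adamts or Adamtsl followed by a number. This gave 140 probes of 70 genes, among 45281 probes of 19057 named genes on the Illumina MouseWG-6 beadchip. There were 19 Mmp, 4 Timp, 26 Adam, 17 Adamts and 4 Adamtsl genes.

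The nerves came from LKB1-SCKO mutant mice, which lack the kinase LKB1 (gene Stk11) in Schwann cells, and from control mice that carried the floxed gene but expressed no Cre recombinase. All mice were of a mixed FVB/C57BL/6 strain and were taken at postnatal day 60, an age chosen to lie before axons degenerate. Each genotype had 2 arrays, and each array carried RNA pooled from 3 nerves of different mice, so that 6 mice stood behind each genotype. The promoter that drove Cre is not given in the sources used here. Because whole nerve was measured, fewer cells of a type and less RNA per cell cannot be told apart.

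Metalloproteinases are zinc enzymes that cut proteins outside the cell. MMPs digest matrix and release growth factors, ADAMs cut membrane proteins free of the cell surface or act as adhesion receptors, ADAMTS enzymes process proteoglycans and procollagens, and ADAMTS-like proteins share the ADAMTS ancillary domains but have no protease domain. TIMPs bind the active site and block it. In peripheral nerve these proteins are known for matrix turnover after injury, for cutting the neuregulin that instructs Schwann cells to myelinate, and, through ADAM22, for receiving LGI4, a protein that Schwann cells secrete.

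At a detection p-value under 0.05 against the negative controls, an array detected 53 to 63 of the 140 member probes, and 43.3% to 45.6% of all probes. The labels were checked on Stk11, which read 9.70 and 9.83 (log2 intensity, controls) against 8.93 and 9.01 (LKB1-SCKO). Schwann cell markers were present in all pools, with 6 of 9 listed markers on the array and all 6 detected throughout. The LKB1-SCKO 1 pool stood apart in skeletal muscle genes, whose summed intensity over 7 markers was 12129 there and 36411 to 46948 in the other pools. In the fit over 10858 genes (limma, Benjamini-Hochberg), 412 genes passed an adjusted p of 0.05, of which 267 were higher and 145 lower in LKB1-SCKO. Without control 1, control 2, LKB1-SCKO 1 or LKB1-SCKO 2 that count was 182, 112, 225 or 483.

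Of the 70 genes, 43 were measured, meaning that a probe was detected on both arrays of at least 1 genotype. All 4 Timp and all 4 Adamtsl genes were measured, as were 12 of 17 Adamts, 10 of 19 Mmp and 13 of 26 Adam genes. For 34 of the 43 the probe that stands for the gene was detected on all 4 arrays, and the other 9 entered through 1 genotype. The 27 genes without a measured probe had 18 that were detected on no array and 9 that a probe detected on no more than 1 array of each genotype. Of the 15 Adam genes known mainly from the male reproductive tract 3 were measured, against 7 of 8 somatic Adam proteases and 3 of 3 Adam genes that encode neural adhesion receptors. Adam12, a protease of muscle and mesenchyme, was the somatic Adam gene that was not measured.

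**Figure D1:**
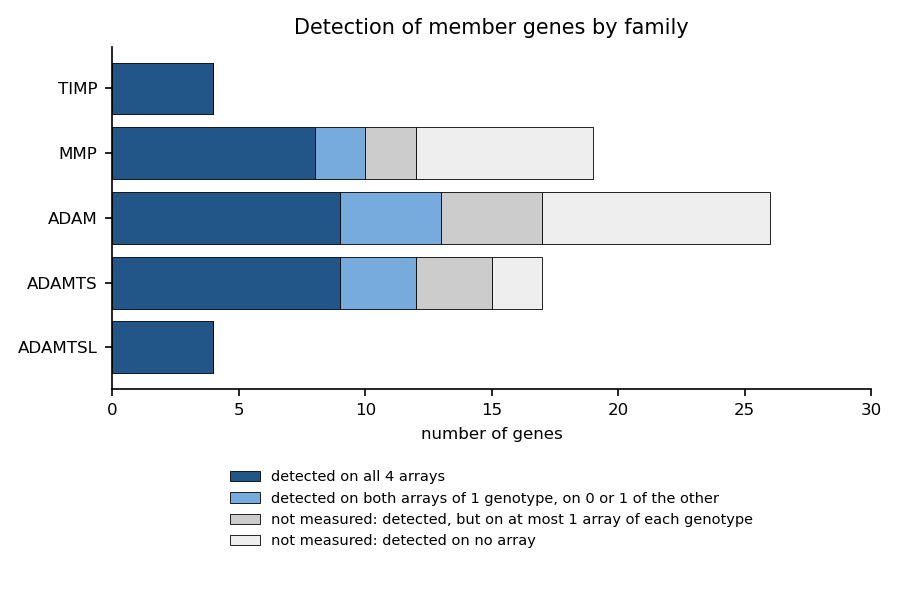
Number of genes per family (horizontal axis) by how their probes were detected across 2 control and 2 LKB1-SCKO arrays. All 4 Timp and all 4 Adamtsl genes were detected on every array, while 7 of 19 Mmp and 9 of 26 Adam genes were detected on none.

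Of the 9 unmeasured Mmp members, 6 lay in 1 genomic run. In the RefSeq annotation (GRCm38.p6) 10 protein-coding genes follow each other on chromosome 9 and all are Mmp genes, 7 of them members here: Mmp13, Mmp12, Mmp3, Mmp10, Mmp8, Mmp20 and Mmp7. Only Mmp13, a collagenase, was measured among these 7, through 1 of its 3 probes, whereas 9 of the 12 Mmp members elsewhere were measured. Of the other genes of the run, Mmp1a, a collagenase gene whose name falls outside the naming rule, was detected on all 4 arrays, at 6.22 and 6.69 in controls and 6.43 and 6.51 in the mutant (log2 difference 0.01, adjusted p = 0.975). That Mmp13 probe was detected on both control arrays and on neither LKB1-SCKO array, at a log2 intensity of 5.26 and 5.19 against 5.01 and 5.15, close to the lowest detected signals of the arrays (5.16 to 5.27). Most member promoters with AP-1 letters lie in this run, so those are shown. In the last 250 bases before the gene start, TGAGTCA (either strand) occurred in 5 of 9 windows of the run, in 1 of 35 windows of the other members and in 4.5% of all 32851 promoter windows of RefSeq. The 5 sequences below are the 100 bases that end just before the start, from RefSeq GRCm38.p6, with the AP-1 letters and any TATAAA in capitals. The AP-1 letters begin 35 to 63 bases before the start, and all but Mmp12 have TATAAA between them and the start. A match is a description of the letters and shows no binding.
Mmp13, chr9:7272414-7272513, plus strand: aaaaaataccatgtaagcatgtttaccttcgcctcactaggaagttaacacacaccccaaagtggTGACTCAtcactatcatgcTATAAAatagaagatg
Mmp12, chr9:7347274-7347373, plus strand: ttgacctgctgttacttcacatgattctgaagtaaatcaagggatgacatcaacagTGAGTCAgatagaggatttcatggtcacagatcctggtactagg
Mmp3, chr9:7445722-7445821, plus strand: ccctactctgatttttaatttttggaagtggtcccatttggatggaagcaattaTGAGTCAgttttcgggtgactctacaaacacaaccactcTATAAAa
Mmp10, chr9:7502242-7502341, plus strand: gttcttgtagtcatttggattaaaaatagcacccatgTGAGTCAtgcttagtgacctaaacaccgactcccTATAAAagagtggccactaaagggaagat
Mmp7, chr9:7691990-7692089, plus strand: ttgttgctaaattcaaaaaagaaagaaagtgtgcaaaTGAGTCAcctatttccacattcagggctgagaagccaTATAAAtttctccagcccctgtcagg

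Timp1 rose in the mutant nerves while the other inhibitors did not pass the test. Timp1 encodes a soluble inhibitor of most MMPs. Control pools read 7.95 and 7.35 on the log2 intensity scale, and LKB1-SCKO pools 9.73 and 9.31. The unprocessed signals were 375 and 299.8 against 922 and 781. Both LKB1-SCKO pools were above both control pools, a 3.65-fold rise (log2 fold change 1.87, SE 0.256, limma adjusted p = 0.0282). Pools of a genotype lay closer to each other than to any pool of the other genotype. A second Timp1 probe gave 7.82 and 7.36 against 9.62 and 9.19, a log2 fold change of 1.82 (adjusted p = 0.0279 over kept probes, of which 2.5% passed). Without control 2 or LKB1-SCKO 1 the adjusted p was 0.0781 and 0.0654, and with the authors' processed values it was 0.0515, so the call did not hold in those settings.

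Timp2, which also takes part in the activation of MMP2 by MMP14, stood at 13.68 and 13.58 in control pools and at 13.45 and 13.44 in LKB1-SCKO pools. The pools did not overlap, but the log2 difference of -0.18 had a 95% interval of -0.50 to 0.14 (adjusted p = 0.454). Timp3, an inhibitor held in the matrix that also blocks ADAM17, stood at 14.08 and 14.06 against 14.23 and 14.10, a log2 difference of 0.10 with an interval of -0.23 to 0.43. Its other probes gave 0.18 and -0.08, and the brightest probe turned to -0.03 under median scaling. Timp4 overlapped between genotypes, at 6.31 and 5.68 in control and 7.12 and 5.97 in LKB1-SCKO pools (log2 difference 0.55, interval -0.51 to 1.61). Whether Timp1 responded more than the other 3 was not tested, and intervals of Timp2 and Timp3 lie below that of Timp1, which ran from 1.22 to 2.52.

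**Figure D2:**
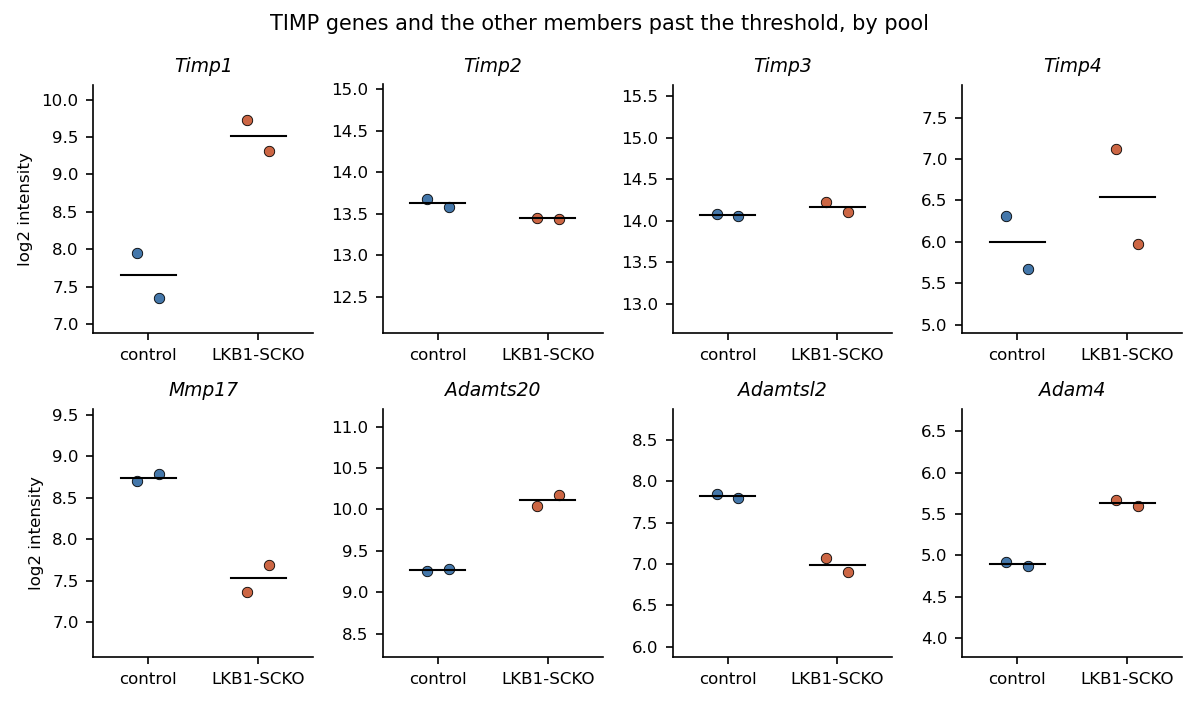
Log2 intensity (vertical axis, a span of at least 3 units) in each pool for the 4 Timp genes and the other 4 members past the threshold. Points are pools of 3 nerves and bars are means of 2 pools. Timp1 rose from 7.35 and 7.95 to 9.31 and 9.73, while Timp4 overlapped between genotypes.

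Across the 43 measured members, 5 passed an adjusted p of 0.05, beside 3.79% of all genes tested. Of these Timp1, Adamts20 and Adam4 were higher in LKB1-SCKO (background 2.46%), and Mmp17 and Adamtsl2 were lower (background 1.34%). At an unadjusted p under 0.05 there were 18 members, 7 higher and 11 lower, beside 22.4% of all genes. Pools did not overlap for 29 members, 10 higher and 19 lower, beside 55.1% of all genes. The median log2 fold change was -0.15 over the members and 0.01 over all genes, and the median absolute change was 0.49 against 0.22. These counts describe the members that passed the detection filter, and 9 of them passed through 1 genotype. The 34 members detected on all 4 arrays held 4 of these 5 calls (all but Adam4), beside 3.28% of such genes. This is a subset of the same calls and no new test. A separate fit on probes detected on all arrays called 6 members, with Adamts4 and Adamtsl3 added, and 367 of 9946 genes.

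**Figure D3:**
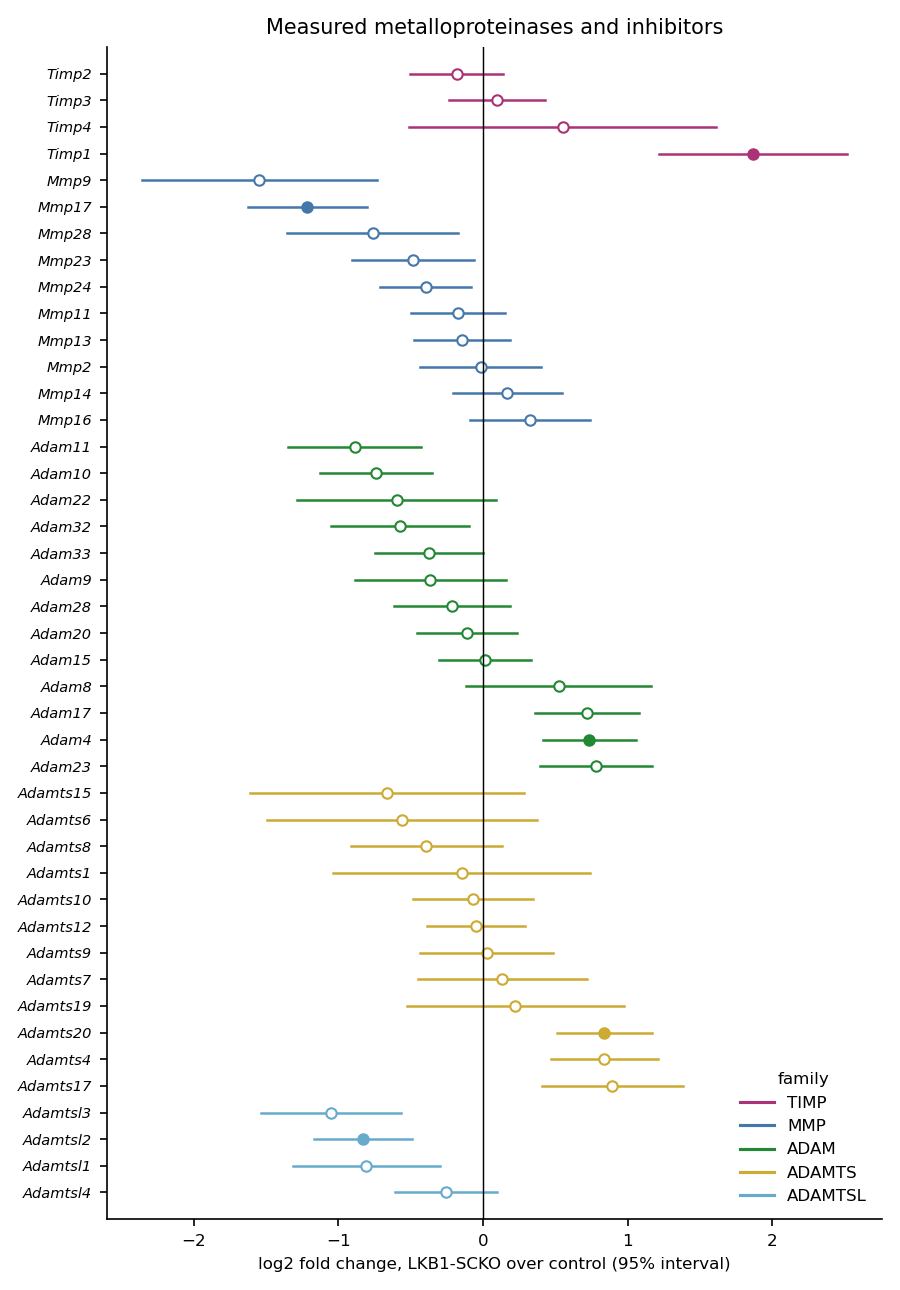
Log2 fold change of LKB1-SCKO over control for the 43 measured members, by family, with the 95% interval of the limma fit (2 pools per genotype). Filled points passed an adjusted p of 0.05. All 4 Adamtsl genes and 8 of 10 Mmp genes lie below 0.

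Mmp17 was the 1 Mmp gene past the threshold, and it was lower in the mutant. Mmp17, a membrane-type MMP held by a lipid anchor, fell from 8.70 and 8.79 (controls) to 7.36 and 7.69 (LKB1-SCKO). The groups were apart, with unprocessed signals of 547 and 589 against 279.7 and 346 (log2 fold change -1.22, SE 0.163, adjusted p = 0.0276, or 2.32-fold lower). Leaving out LKB1-SCKO 2 kept the call (adjusted p = 0.021), and the adjusted p was 0.0845 without control 1, 0.130 without control 2 and 0.0594 without LKB1-SCKO 1.

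Mmp9, the gelatinase known to increase in injured nerve, had the largest log2 difference of the measured Mmp genes, and whether it passed depended on the processing. Control pools stood at 7.62 and 7.70, and the LKB1-SCKO pools at 5.64 and 6.59, which differed from each other by 0.96. The log2 difference was -1.55 (SE 0.321, adjusted p = 0.0703), and without LKB1-SCKO 2 it was -2.03 and passed (adjusted p = 0.00818). It also passed, at a smaller size, without background correction (-0.72, adjusted p = 0.0335) and with an offset of 50 (-1.18, adjusted p = 0.0341). Mmp9 is also stored in neutrophil granules. Of the 9 listed neutrophil markers 8 were on the array and 3 were measured, all above 0 in log2 fold change and none past the threshold, with summed intensities of 286.5 and 134.7 in controls 1 and 2 and 290.8 and 556.9 in LKB1-SCKO 1 and 2. Their part in the Mmp9 values was not tested. The neutrophil markers Ngp and Retnlg were detected on no array.

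The other gelatinase gene, Mmp2, overlapped between genotypes. It stood at 14.04 in both control pools and at 14.20 and 13.84 in LKB1-SCKO pools, a log2 difference of -0.02 with a 95% interval of -0.43 to 0.40. Mmp14, the membrane-type enzyme that activates MMP2, overlapped too, at 10.93 and 11.11 against 11.28 and 11.09 (interval -0.21 to 0.54). Whether Mmp9 differed from these genes in its response was not tested.

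Mmp28, or epilysin, was lower in both LKB1-SCKO pools at its main probe, 5.30 and 5.87 against 6.50 and 6.20, without passing (log2 difference -0.76, adjusted p = 0.149). Its other kept probe overlapped between genotypes and gave -0.39. Mmp24, a membrane-type MMP of neural tissue, had close replicates at 9.96 and 9.95 in control pools and 9.55 and 9.56 in LKB1-SCKO pools (log2 difference -0.40, adjusted p = 0.156), and its other kept probes gave -0.68 and 0.01. The remaining Mmp genes, Mmp23, Mmp11, Mmp13 and Mmp16, ranged from -0.49 to 0.33 with adjusted p of 0.181 or above.

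Adamts20 rose in LKB1-SCKO nerves. It encodes a protease of versican-type proteoglycans, and mutant alleles of the mouse gene cause the belted coat, a defect of melanoblast colonisation. It read 9.26 and 9.29 in controls against 10.05 and 10.18 in the mutant, so the groups were apart by more than the pools of a genotype (log2 fold change 0.84, SE 0.131, adjusted p = 0.0385, or 1.79-fold). Its other probe gave 9.10 and 9.40 against 9.91 and 10.01, a log2 fold change of 0.71. Over kept probes neither Adamts20 probe passed (adjusted p = 0.0514 for the main probe and 0.100 for the other). With any 1 of the 4 pools left out the call was lost (adjusted p between 0.0754 and 0.177) and with the authors' processed values (adjusted p = 0.0570).

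Adamts4, an aggrecanase, had a change of the same size but lay just outside the threshold. It stood at 7.91 and 7.82 in control pools and 8.59 and 8.83 in LKB1-SCKO pools (log2 difference 0.84, adjusted p = 0.0503), and passed in 7 of 17 other settings. Adamts17, a secreted ADAMTS linked to fibrillin in human disease, was undetected on both control arrays, at 4.60 and 4.94, and detected on both LKB1-SCKO arrays, at 5.84 and 5.50. Its log2 difference was 0.90 (limma adjusted p = 0.0761), and it entered the fit through the LKB1-SCKO arrays alone. Against the detection limit the bound on the difference was 1.40-fold, which was not itself tested. For such a bound, the dimmer genotype's value on an array is its own signal or the array's lowest detected signal, whichever is higher. Adamts1, another proteoglycanase, varied more between pools of a genotype than between genotypes, at 6.47 and 5.88 against 6.47 and 5.58. The other 8 measured Adamts genes ranged from -0.66 (Adamts15) to 0.22 (Adamts19) at their main probes, with adjusted p of 0.327 or above. For Adamts10 the main probe overlapped between genotypes at -0.07. Its other kept probe was lower in both mutant pools at -0.61 (limma adjusted p = 0.158 over kept probes).

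At their main probes, the ADAMTS-like genes were lower in both mutant pools in all 4 cases. Adamtsl2, which encodes a fibrillin-associated matrix protein that restrains TGF-beta signalling, fell from 7.84 and 7.79 to 7.07 and 6.90 (log2 fold change -0.83, SE 0.135, adjusted p = 0.0422, or 1.78-fold lower). Adamtsl3 stood at 8.54 and 8.86 against 7.82 and 7.48 (log2 difference -1.05, adjusted p = 0.0543), and passed in 5 of 17 other settings. Its other probes, which were not kept, overlapped between genotypes and differed by 0.04 and 0.27. Adamtsl1 stood at 9.02 and 9.14 against 8.02 and 8.52 (log2 difference -0.81, adjusted p = 0.102).

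Adamtsl4, another fibrillin-binding member, had the smallest difference of the 4, 9.24 and 9.36 against 9.13 and 8.95 (log2 difference -0.26, interval -0.61 to 0.10). Non-overlap toward lower values was found for 25.8% of all genes tested. No Adamtsl2 call remained with 1 pool left out (adjusted p between 0.0780 and 0.184). These proteins are matrix components. Of 9 fibroblast markers measured, 0 passed in limma (3 at an unadjusted p under 0.05), with a median log2 fold change of -0.10 and summed intensities of 65904 and 79227 in control and 68389 and 55608 in LKB1-SCKO pools. Of these markers 4 lay above 0 and 5 below, from 0.74 for Fbln1 (adjusted p = 0.206) to -0.83 for Pdgfra (adjusted p = 0.112), and their part in these differences was not tested.

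The promoters of the members past the threshold are shown for comparison, for the 3 of 5 found in the RefSeq promoter table. Each is the 250 bases before the gene start, with AGGAAG (an ETS core, either strand) and TATAAA in capitals.
Timp1, chrX:20869916-20870165, plus strand: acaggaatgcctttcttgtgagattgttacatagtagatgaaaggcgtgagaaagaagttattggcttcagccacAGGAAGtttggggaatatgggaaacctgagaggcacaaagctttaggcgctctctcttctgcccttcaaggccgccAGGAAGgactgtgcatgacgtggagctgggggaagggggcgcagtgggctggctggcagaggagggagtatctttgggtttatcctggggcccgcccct
Adamts20, chr15:94404351-94404600, minus strand: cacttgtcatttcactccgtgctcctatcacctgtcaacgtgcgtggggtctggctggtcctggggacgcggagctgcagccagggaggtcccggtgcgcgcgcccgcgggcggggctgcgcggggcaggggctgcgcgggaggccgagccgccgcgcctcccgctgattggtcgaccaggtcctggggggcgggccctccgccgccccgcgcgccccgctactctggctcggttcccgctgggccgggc
Adamtsl2, chr2:27079129-27079378, plus strand: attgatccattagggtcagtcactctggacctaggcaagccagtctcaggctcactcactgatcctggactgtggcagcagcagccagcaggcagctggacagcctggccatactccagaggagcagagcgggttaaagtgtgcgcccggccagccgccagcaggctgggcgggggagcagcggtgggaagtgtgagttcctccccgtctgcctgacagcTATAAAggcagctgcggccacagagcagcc
Timp1 has AGGAAG beginning 175 and 99 bases before the start, and 29.5% of all promoter windows hold at least 1 match. Adamtsl2 has TATAAA beginning 30 bases before the start, as do 12.4% of windows at any position. Adamts20 has neither and is 76.4% G and C, beside a median of 52.4% over all windows. None of the 3 has TGAGTCA, so these windows share no searched letters.

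Adam genes included 1 call, at a probe near the detection limit. Adam4, known from mouse testis, was undetected on both control arrays, at 4.92 and 4.87, and detected on both LKB1-SCKO arrays, at 5.67 and 5.60. The log2 difference was 0.73 (limma adjusted p = 0.0487), for a gene that entered the fit through the LKB1-SCKO arrays alone. Against the detection limit Adam4 had a bound of 1.36-fold, which was not itself tested. Its other 2 probes differed by 0.08 and -0.11 and were not kept. Leaving out any 1 pool lost the call (adjusted p between 0.0775 and 0.227), and without background correction the log2 difference was 0.21 (adjusted p = 0.194).

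The sheddases ADAM10 and ADAM17, which cut Notch, neuregulin and TNF family proteins from the cell surface, stood on opposite sides of 0 without passing in the main fit. Adam10 was at 6.68 in both control pools and 5.80 and 6.08 in LKB1-SCKO pools (log2 difference -0.74, adjusted p = 0.0694). It passed in 1 of 17 other settings, under median scaling (-0.82, limma adjusted p = 0.0489). Adam17, whose neuronal protein inhibits myelination in mice, was at 9.92 and 10.10 in control and 10.65 and 10.81 in LKB1-SCKO pools at its main probe (log2 difference 0.72, adjusted p = 0.0645). Adam17 passed in 2 of 17 other settings, without background correction (0.65, limma adjusted p = 0.0243) and with an offset of 50 (0.70, adjusted p = 0.0348). The other kept Adam17 probe was lower in both mutant pools, 7.78 and 7.65 against 7.39 and 7.52 (log2 difference -0.26, adjusted p = 0.368 over kept probes), so the probes of this gene disagreed in direction. Which transcripts each probe reads is not given in the sources used here.

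Among the other somatic proteases, Adam15 overlapped at 10.40 in both control pools and 10.44 and 10.39 in LKB1-SCKO pools (interval -0.30 to 0.33), and so did Adam9 (log2 difference -0.36). Adam8, a leukocyte protease detected on 1 of 2 control arrays, stood at 4.82 and 5.34 against 5.85 and 5.35, a log2 difference of 0.52 that did not pass. Adam28 and Adam33 stood at -0.22 and -0.37 without passing. The other measured reproductive-tract genes, Adam20 and Adam32, stood at -0.11 and -0.58 (adjusted p = 0.680 and 0.167).

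**Figure D4:**
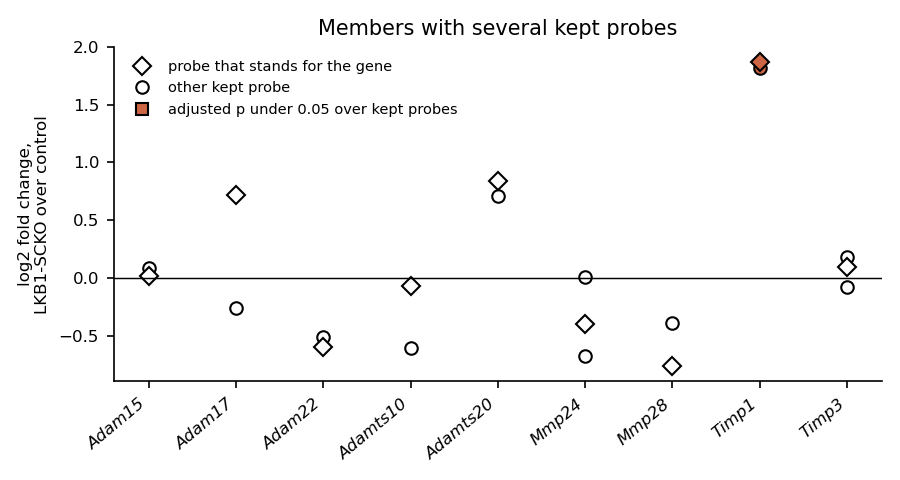
Log2 fold change of LKB1-SCKO over control (vertical axis) for every kept probe of the 9 members with more than 1. Both Timp1 probes (1.87 and 1.82) passed over kept probes, and the Adam17 probes lay at 0.72 and -0.26.

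Adam11, Adam22 and Adam23 encode receptors without protease activity that bind secreted LGI proteins at axons and synapses. In nerve, LGI4 from Schwann cells acts through ADAM22, and loss of LGI4 in mice delays myelination. Adam11, detected on 1 of 2 LKB1-SCKO arrays, was at 6.30 and 6.36 in controls against 5.65 and 5.23 (log2 difference -0.89, adjusted p = 0.0692). Adam22 was at 5.45 and 6.14 against 5.39 and 5.003, again detected on 1 of 2 LKB1-SCKO arrays (log2 difference -0.60, adjusted p = 0.274). Its other kept probe gave -0.51.

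Adam23 was higher in both mutant pools, 10.67 and 10.38 against 11.30 and 11.31 (log2 difference 0.78, adjusted p = 0.0630), and passed in 2 of 17 other settings. Pools did not overlap for any of the 3 receptors, as for 55.1% of all genes, and none of the 3 passed the threshold in the main fit. Among the ligands, which are not members, Lgi1 fell 3.07-fold, from 9.17 and 9.04 to 7.25 and 7.72 (log2 fold change -1.62, adjusted p = 0.0208), with the call lost without control 1 or control 2 (adjusted p = 0.0697 and 0.0763). Lgi4 stood at 11.998 and 11.79 against 11.02 and 11.30 (log2 difference -0.74, adjusted p = 0.0839). Lgi2 and Lgi3 overlapped between genotypes, with log2 differences of 0.10 and 0.38.

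**Figure D5:**
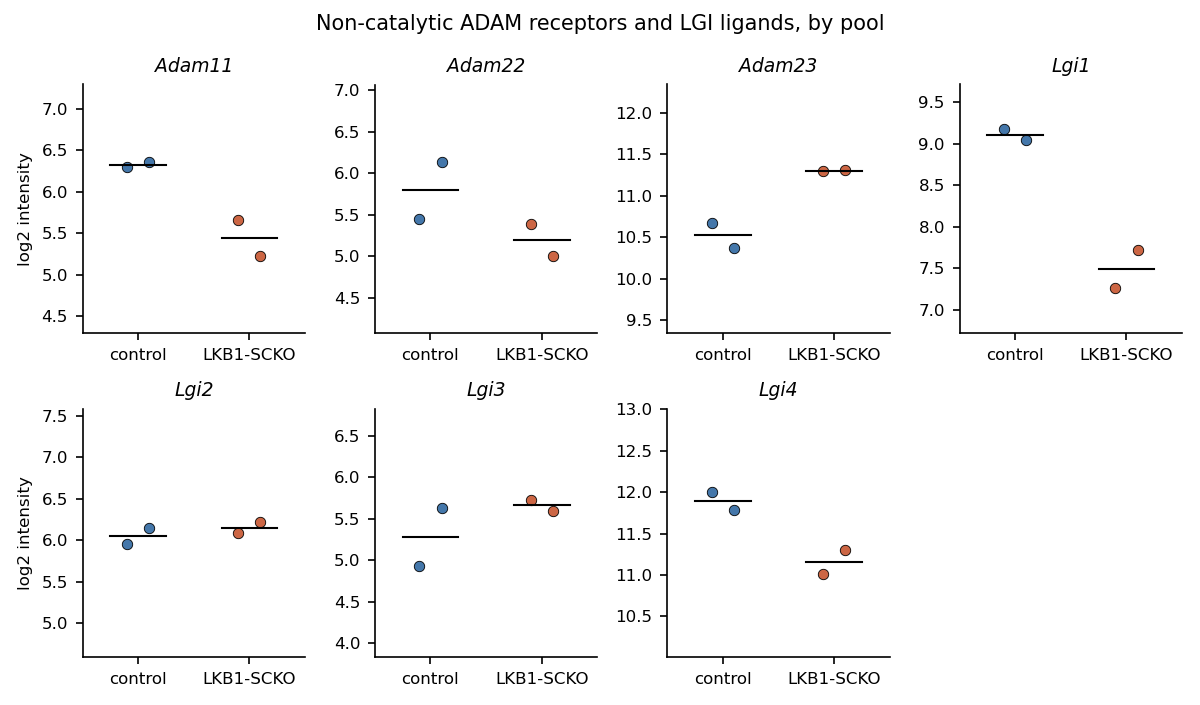
Log2 intensity (vertical axis, a span of at least 3 units) in each pool for 3 non-catalytic Adam genes and the 4 Lgi genes. Points are pools and bars are means. Lgi1 fell from 9.17 and 9.04 to 7.25 and 7.72, and Adam23 lies higher and Adam11 and Adam22 lower in LKB1-SCKO without passing the test.

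Of 82 listed genes that activate, inhibit, partner with or are cut by metalloproteinases, 71 were on the array and 50 were measured. Past the threshold were 4 higher and 2 lower, and 44 did not pass, with a median log2 fold change of 0.07 (3.79% of all genes passed). Among the 4 higher genes, Nrg1 entered the fit through the LKB1-SCKO arrays alone. Among activators, Klk8, the serine protease neuropsin, rose from 7.07 and 6.85 to 8.77 and 9.06 (log2 fold change 1.96, adjusted p = 0.00755) and passed without each pool. Plau, the plasminogen activator urokinase, was higher in both mutant pools without passing (log2 difference 0.73, adjusted p = 0.124), and the convertase gene Furin stood at 0.23.

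Among inhibitors, Spock1, which encodes the proteoglycan testican-1, rose from 6.68 and 6.45 to 7.94 and 7.85 (log2 fold change 1.33, adjusted p = 0.0153, or 0.0840 without control 2). Reck, a membrane-anchored inhibitor of MMPs, was at 9.61 and 9.26 against 8.97 and 9.10 (log2 difference -0.40, adjusted p = 0.243). Rhbdf1 and Rhbdf2, the inactive rhomboids that bring ADAM17 to the cell surface, stood at 0.36 and 0.31 without passing.

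Among substrates, Btc, an EGF-type ligand that ADAM10 can release, rose from 5.35 and 5.23 to 7.87 and 7.30 (log2 fold change 2.29, adjusted p = 0.0103) and passed without each pool. Its control signals lay near the detection limit, and the log2 fold change was 0.95 without background correction and 1.63 with an offset of 50, past the threshold in both. Nrg1, the neuregulin gene, was undetected on both control arrays, at 5.07 and 4.86, and detected on both LKB1-SCKO arrays, at 6.14 and 5.97. Its log2 difference was 1.09 (limma adjusted p = 0.0282). Against the detection limit the bound on the Nrg1 difference was 1.82-fold, which was not itself tested. Without control 1 its adjusted p was 0.0739, without control 2 0.141 and without LKB1-SCKO 1 0.0779. Without background correction the Nrg1 log2 difference was 0.32 (adjusted p = 0.0937), so both the call and the size of the bound depend on that step. Mme, which encodes the membrane zinc peptidase neprilysin, fell from 10.47 and 10.32 to 9.36 and 9.32 (log2 fold change -1.06, adjusted p = 0.0246), a call lost without all pools but LKB1-SCKO 2 (adjusted p from 0.0614 to 0.101). Listed matrix genes lay on both sides of 0. The collagen genes Col1a1, Col4a1 and Col3a1 stood at -0.18, -0.58 and -0.70, and Col1a2 at 0.53. Vcan and Fn1 stood at -0.20 and -0.33, and Comp and Thbs2 at 0.78 and 1.37. None of these passed (limma adjusted p of 0.0532 or above).

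Some macrophage markers and the cell division markers rose beside these results. Of 15 macrophage markers 14 were on the array and 13 were measured. Of those 4 rose and 11 lay above 0, and Itgam was detected on no array. Summed intensities were 11147 and 16610 in control and 25549 and 20218 in LKB1-SCKO pools. Below 0 were Cd163, lower in both mutant pools (log2 difference -1.25, limma adjusted p = 0.236), and Mrc1 (-0.48), which overlapped. The 3 measured red blood cell markers were higher in both mutant pools (sums 14054 and 11574 against 26172 and 50566), without passing in limma. All 4 measured cell division markers rose (sums 199.1 and 196.5 against 876 and 581). Of these, Top2a was undetected on both control arrays and entered the fit through the LKB1-SCKO arrays alone. Beside this count and the macrophage count, 2.46% of all genes tested passed and were higher. Muscle markers, 7 of 7 below 0 in log2 fold change, were lowest in LKB1-SCKO 1. The summed muscle intensity was highest in the other mutant pool, LKB1-SCKO 2 (46948). The part of these cells in the differences of Timp1, Mmp9, Adam8 and the other members was not tested.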

How the data were processed

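RNA of 4 nerve pools was measured on 1-colour beadchips. Per the labels' protocols, Trizol RNA went through RNeasy clean-up and DNase I treatment before biotin-labelled cRNA was made. The deposited table gives, per the file headers, non-normalized signal intensity (linear scale, above 0, medians 153 to 167) and a detection p-value per probe, in steps of 1 in 936. The authors' processed intensity, deposited separately on a linear scale, has the same median (13.6) and minimum (-53.1) on every array, with each array's rank order kept (Spearman 1). No source used here gives its steps, slides or probe genome build, and the submitters' processing notes name GenomeStudio 2010.

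From the non-normalized intensity, background was corrected with normexp of limma 3.58.1 (R 4.3.3) using the detection p-values (offset 16), followed by quantile normalization and log2. Probes were kept where 1 or both genotypes had them detected (p under 0.05) in each of their arrays (19732, of which 16821 had a gene), and the probe with the highest mean stood for a gene. Genotypes were compared with lmFit and eBayes, two-sided, with Benjamini-Hochberg adjustment over 10858 genes at 0.05. Fold changes are LKB1-SCKO over control, and intervals are 95% intervals of that fit. The number of arrays limits the precision, and p-values measure the spread between pools, biological and technical together. Symbols come from the platform annotation, where 34885 probes had 1 symbol, 18 several and 10378 none, updated through gene identifiers of a RefSeq table (GRCm38.p6; 34807 matched, 78 did not). The fit was tested on simulated data.

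Named members were the Timp genes, those past the threshold, the 12 largest changes, genes undetected in 1 genotype and a list with known nerve roles, which gave 26 genes. Any other was named to complete its family, and named genes outside the members came from the fixed lists. Of the member genes, 41 had a promoter in the RefSeq table. Members and lists were chosen with earlier results of these data known, so they are descriptions and no list was tested as a set. Alternatives were background, normalization, filter, probe rule, array weights, replicate block, leaving out each pool, and the authors' processed values.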

Additional observations from a re-analysis of the deposited data

How the results depend on the processing

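The 5 member calls depended on the processing, and no log2 fold change of these 5 genes changed sign in the settings run. Without background correction and with an offset of 50, 9 members passed (5 higher and 4 lower in each), and 635 genes passed without background correction. With the authors' processed values 2 members passed (1 higher, 1 lower), with every probe tested on its own 2 (1 higher, 1 lower), and without the detection filter 3 (1 lower). Median scaling gave 4, of which Timp1 was higher and Mmp17, Adamtsl2 and Adam10 were lower. Leaving out 1 pool gave 0 to 5 members (0 to 1 higher, 0 to 4 lower), 112 to 483 genes and 2 to 7 listed pathway genes. The 0 counts are limma's, without control 2 or LKB1-SCKO 1, where 18 members each had an unadjusted p under 0.05. The cause of these changes was not tested.

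With the replicate number as a block, 1 member (Timp1) passed, 1 higher and 0 lower (17 members at an unadjusted p under 0.05, 9 of them lower), as did 172 genes and 3 pathway genes. The number need not pair the pools, since same-numbered pools deviated with a correlation of -0.17 over genes. With the pairs crossed, chosen after seeing the data, 3 members passed, 1 of them higher. Mmp17 and Adamtsl3 were lower, and the higher one was Adamts17, which was undetected on both control arrays. Timp1 did not pass with the pairs crossed.

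The median log2 fold change of the Adam family was -0.22, and -0.061 without background correction, -0.37 with a detection p-value of 0.01 and -0.053 without the filter. That of the Mmp family was -0.28, and -0.10 without the filter, and that of the Adamtsl family was -0.82, and -0.54 without background correction. The Timp median of 0.32 ranged from 0.0053 to 0.64 when 1 pool was left out. Signs changed for genes that had not passed. Under median scaling Timp3 stood at -0.026 and Adam15 at -0.056. When 1 pool was left out Adamts1 ranged from -0.60 to 0.30, Timp4 from -0.021 to 1.12, Adam15 from -0.013 to 0.039 and Mmp2 from -0.19 to 0.16. The bounds of Adam4 and Adamts17 fell to 0.12 and 0.14 on the log2 scale without background correction. Signal over background limits the fold changes of genes near the detection limit, such as Adam4, Adamts17, Mmp13, Nrg1 and Btc.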
